A study of Homo sapiens with 36 samples.

Results

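Oxidative phosphorylation was examined as 93 gene rows of the 19014 rows of normalized counts. The rows were chosen by name alone: the NDUFA, NDUFB, NDUFC, NDUFS and NDUFV subunits of complex I, SDHA to SDHD of complex II, the UQCR genes of complex III, COX4 to COX8 of complex IV, the ATP5 genes of complex V, and the protein-coding genes of mitochondrial DNA. Of these rows, 80 belonged to nuclear genes and 13 to mitochondrial DNA, and 4 pseudogenes were left out. They carried 91 gene symbols, since NDUFB8 and UQCR11 each stood on more than 1 gene identifier. Complex I had 38 nuclear and 7 mitochondrial rows, complex II had 4 nuclear rows, complex III had 9 nuclear and 1 mitochondrial, complex IV had 12 and 3, and complex V had 17 and 2. The names ATP5S, ATP5SL and COX7A2L matched the rule although their products are not core subunits. Complexes were assigned by gene name, so NDUFA4 was counted with complex I although its product is placed in complex IV. ATP5SL and ATP5S, whose newer symbols are DMAC2 and DMAC2L, were counted with complex V by name alone. The isoforms COX4I2, COX6A2, COX7A1, COX7B2, COX8C and UQCRHL were not analysed here. No member was lost to the filter on low values (at least 10 normalized counts in at least 9 libraries), so all 93 rows were tested.

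The respiratory chain of the inner mitochondrial membrane passes electrons from NADH through complex I, and from succinate through complex II, to complexes III and IV and on to oxygen. The proton gradient built by complexes I, III and IV drives ATP synthesis by complex V. Complexes I, III, IV and V each contain subunits made inside the organelle from mitochondrial DNA beside a larger number of nuclear-encoded subunits imported from the cytosol, whereas complex II is nuclear-encoded throughout. The mitochondrial mRNAs are cut from long polycistronic transcripts made by the mitochondrial RNA polymerase, while each nuclear subunit has its own promoter read by RNA polymerase II.

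H446 is a cell line from a human small-cell lung cancer of the NEUROD1 subtype. NEUROD1 was knocked out with 1 guide RNA in 3 clones (12, 15 and 2-1), and 3 clones with a non-targeting guide RNA (3, 10 and 13) served as controls. All 6 clones were given 1 µM JQ1 or DMSO for 24 h. JQ1 blocks the bromodomains by which BET proteins hold on to acetylated chromatin, and DMSO is its solvent. Each clone and treatment had 3 biological replicates, 36 libraries in all. Libraries of 1 clone share its genome, so the clone was taken as the replicate and values are means over its libraries. The knockout thus rests on 3 clones of 1 guide RNA in 1 cell line.

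Library 1 of knockout clone 12 with JQ1 was left out, since it held 31825795 reads and lung and blood transcripts (CEACAM6 at 46010 normalized counts, listed at 0 in its replicates). The other 35 libraries held 13282337 to 18890506 reads (median 16176503). Among these, library 1 of control clone 13 with JQ1 held CEACAM6 at 80.4 normalized counts. NEUROD1 averaged 1.87 ± 2.93 normalized counts in knockout clones and 5998 ± 580.5 in control clones under DMSO; under JQ1 it averaged 2.34 ± 3.65 in knockout clones and 7092 ± 1266 in control clones (SD, n = 3 each). HEXIM1, a gene that rises when BET proteins are inhibited, rose with JQ1 in both genotypes (log2 fold change 1.96 in knockout clones and 2.22 in control clones, adjusted p = 7.11e-06 and 6.30e-06, limma). The neuroendocrine markers CHGA, INSM1 and SYP fell in knockout clones in DMSO, with log2 fold changes of -7.63, -6.01 and -4.59 (adjusted p = 0.000177, 2.96e-05 and 0.000184, limma), while YAP1, a marker of another subtype, rose by 5.61 on the log2 scale (adjusted p = 0.00845, limma). In libraries of bulk RNA, fewer cells of a type and less RNA per cell cannot be told apart.

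Mitochondrial mRNAs had the higher median level per length, although the ranges overlapped. On the FPKM scale, which divides by transcript length, the 13 mitochondrial genes had a median level of 2419 and the 80 nuclear rows one of 112.7, over all 35 libraries. The highest mitochondrial level was that of MT-CO2, a catalytic subunit of complex IV, at 6799 FPKM, and the lowest that of MT-ND6, a membrane subunit of complex I encoded on the other strand, at 569.8 FPKM. MT-ATP8 stood at 6589 FPKM, but its effective length was only 29.4 nt and it overlaps MT-ATP6 by 46 nt on chromosome M (GRCh38, 8366 to 8572 and 8527 to 9207), so its share of reads is uncertain. The same holds for MT-ND4L, which overlaps MT-ND4 by 7 nt. The libraries were selected for poly(A) RNA, so levels of MT-ND6 and other mitochondrial RNAs, ribosomal RNAs included, also depend on capture. This was not tested. Among nuclear members, ATP5J2, a small membrane subunit of complex V, was highest at 1053 FPKM, above MT-ND5 (708), MT-ND1 (672) and MT-ND6. The effective length of ATP5J2 was only 140 nt, so its level and rank are uncertain. ATP5B, with an effective length of 1481 nt, stood at 648 FPKM, also above MT-ND6. UQCRH, the hinge protein of complex III, led its complex at 653 FPKM, NDUFS5 led nuclear complex I at 506, COX7C led nuclear complex IV at 484, and SDHA, the flavoprotein of complex II, stood at 169. The lowest member was COX6B2, the testis isoform of a peripheral complex IV subunit, at 0.478 FPKM, against 374 FPKM for its widely expressed counterpart COX6B1. The 3 genes for the c-ring subunit of complex V stood at 164 (ATP5G1), 367 (ATP5G2) and 246 FPKM (ATP5G3).

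The mitochondrial genes varied together more than the nuclear genes did. Across the 12 means of clone and treatment, the median Pearson correlation of log2 level was 0.76 over the 78 pairs of mitochondrial genes, 0.14 over the 3160 pairs of nuclear rows and -0.095 over the 1040 mixed pairs. These means share clones and treatments, so the correlations are descriptions. The genes outside the set whose pattern was most like the mitochondrial mean were C5AR1 (r = 0.92), PRR24 (0.92), RHPN1 (0.92), RP11-350N15.4 (0.91) and ARSA (0.90), and those most like the nuclear mean were RPS21 (0.98), AC000089.3 (0.95), RPS16 (0.95), RPL37 (0.92) and C11orf31 (0.91), again over 12 means.

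The first comparison asks which members differ with loss of NEUROD1 in DMSO. Of the 13 mitochondrial genes, 1 passed the threshold, with a higher level in the knockout clones, and 0 of the 80 nuclear rows did. The summed mitochondrial reads took a larger share of the library in the knockout clones, by a margin that was narrow for 1 of them. The 13 mitochondrial genes made up 1.47%, 2.39% and 2.18% of reads in knockout clones 12, 15 and 2-1, against 1.44%, 1.17% and 1.43% in control clones 3, 10 and 13. All knockout clone means were above all control clone means, although clone 12 lay only just above clone 3 and single libraries overlapped. The nuclear members took 0.853%, 0.935% and 0.892% of reads in the knockout clones, against 0.920%, 0.966% and 0.856% in the control clones, and these ranges overlapped. The log2 ratio of summed mitochondrial to summed nuclear normalized counts averaged 1.14 ± 0.31 in knockout clones and 0.55 ± 0.24 in control clones (SD, n = 3 each).

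**Figure D1:**
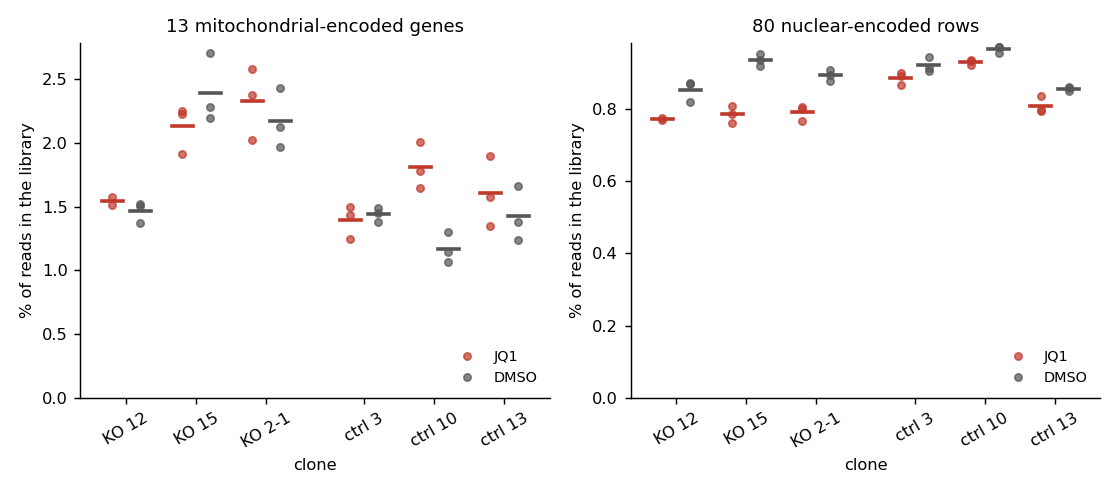
Share of reads (y axis, percent) from the 13 mitochondrial-encoded genes (left) and the 80 nuclear-encoded rows (right) in each library, by clone (x axis; KO, knockout; ctrl, control). Points are libraries, short bars clone means, red JQ1 and grey DMSO. In DMSO the mitochondrial share of the knockout clones lies between 1.47% and 2.39%, above the 1.17% to 1.44% of control clones, and with JQ1 the nuclear share of the knockout clones lies between 0.771% and 0.790%, below every control clone.

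MT-CYB, the cytochrome b subunit of complex III (chromosome M, GRCh38, 14747 to 15887), was the member that passed the threshold. It had 21861, 28207 and 30262 normalized counts in knockout clones 12, 15 and 2-1, against 13173, 13307 and 14956 in control clones 3, 10 and 13. The clones did not overlap, and the log2 fold change was 0.94 (SE 0.16, adjusted p = 0.0122, limma with Benjamini-Hochberg adjustment over 15711 genes). Without control clone 3 or control clone 10 its adjusted p was 0.0537 and 0.0677. Over all genes tested, 12.5% passed (6.29% higher and 6.26% lower), and the share of the 13 mitochondrial genes was 7.69%. At an unadjusted p under 0.05 the counts were 9 of 13 mitochondrial genes and 2 of 80 nuclear rows. On summed reads edgeR called 1 mitochondrial gene and 0 nuclear rows, and DESeq2 called 3 and 1. The same counts over all 15711 genes were 4387, 1828 and 3284. Without knockout clone 12 the threshold was passed by 6 mitochondrial genes, and without control clone 3 or control clone 10 by 0. Of all genes, 2017 passed without knockout clone 12, 1213 without control clone 3 and 911 without control clone 10, in place of 1971.

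The other mitochondrial genes lay on the same side without passing. MT-CO1, the core catalytic subunit of complex IV, had 53581, 82793 and 90464 normalized counts in knockout clones, against 41340, 35877 and 52698 in control clones. Its log2 fold change was 0.79 (SE 0.25, adjusted p = 0.0909, limma), with clone 12 just above control clone 13. MT-ND1, a membrane subunit of complex I, differed by 0.73 (SE 0.21, adjusted p = 0.0722), MT-ND3 by 0.62 and MT-ND4 by 0.53. MT-ND6, MT-CO2, MT-ND4L, MT-ND5 and MT-ND2 differed by 0.53, 0.52, 0.51, 0.50 and 0.50, and MT-CO3, MT-ATP6 and MT-ATP8 by 0.45, 0.37 and 0.27. All 13 were positive, with a median of 0.52, while the nuclear median was 0.0094 and the median of all genes 0.0063. Clone means did not overlap, with the knockout clones higher, for 8 of the 13 mitochondrial genes and 8 of the 80 nuclear rows, against 17.2% of all genes tested. In the other 5 mitochondrial genes they overlapped, as for MT-CO2, with 41365, 72860 and 60892 normalized counts in knockout clones and 52324, 31198 and 38208 in control clones. The reads of the mitochondrial ribosomal RNAs MT-RNR1 and MT-RNR2, which are not members, took 0.520% ± 0.0515 of the library in knockout clones and 0.401% ± 0.00736 in control clones (SD, n = 3 each), and neither gene passed the threshold.

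Nuclear differences were small and split in direction, with 42 rows positive and 38 negative. The 4 subunits of complex II were all positive (median 0.16), led by SDHD, its small membrane anchor, with 2041, 1449 and 2169 normalized counts in knockout clones, against 1408, 1189 and 829.6 in control clones. Its log2 fold change of 0.74 did not pass (SE 0.25, adjusted p = 0.106, limma), although the clones did not overlap. NDUFC1, a small accessory subunit of complex I, differed by 0.48 (SE 0.15, adjusted p = 0.0870). COX6B2 had the largest nuclear value, 1.14, with an SE of 0.75.

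**Figure D2:**
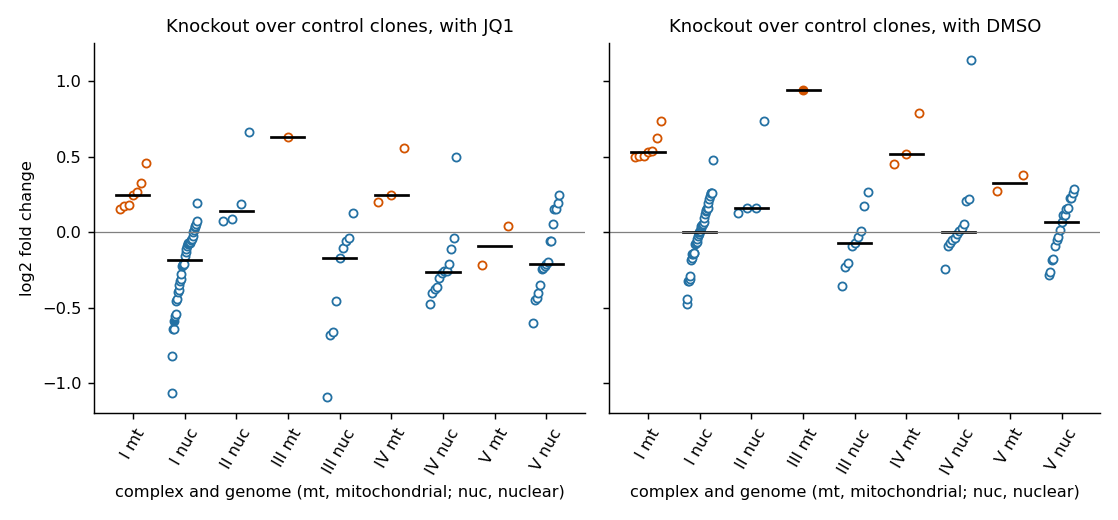
Log2 fold change of knockout over control clones (y axis) for each member by complex and genome (x axis), with JQ1 (left) and with DMSO (right). Orange circles are mitochondrial and blue circles nuclear members, filled where the adjusted p (limma) was under 0.05, and black bars are medians. With DMSO every orange circle lies above 0, at 0.27 to 0.94, while the nuclear medians of complexes I, III, IV and V lie near 0.

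With JQ1 in both genotypes, 1 nuclear row and 0 mitochondrial genes passed. The median log2 difference between knockout and control clones was 0.24 for mitochondrial genes and -0.21 for nuclear rows, against 0.0044 for all genes. The mitochondrial minus nuclear difference was therefore 0.46 with JQ1 and 0.51 with DMSO. The counts were 0 of 13 mitochondrial genes and 1 of 80 nuclear rows, against 11.2% of all genes tested (5.66% higher and 5.57% lower). At an unadjusted p under 0.05 they were 2 mitochondrial genes and 12 nuclear rows, against 4150 of all 15711 genes. On summed reads edgeR called 0 mitochondrial genes and 1 nuclear row, against 1573 of all genes. DESeq2 called 0 and 5, against 2908.

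NDUFB11, an accessory subunit of the complex I membrane arm, was that row. It had 819.6, 896 and 1020 normalized counts in knockout clones, against 1351, 1414 and 1328 in control clones, with no overlap (log2 fold change -0.59, SE 0.14, adjusted p = 0.0422, limma). Its call was lost without any 1 of the control clones, without knockout clone 12 or 15, without replicate 1 or 3, and without the library of control clone 13 that held CEACAM6 (adjusted p = 0.0550 for the last). UQCR10, a small subunit of complex III, differed by -0.68 (adjusted p = 0.0516), and NDUFS7, an iron-sulfur subunit of complex I, by -1.06 (adjusted p = 0.135). Of the 80 nuclear rows, 62 were negative, and in 21 the knockout clones lay below all control clones, against 16% of all genes tested. When each library was adjusted for the length trend of all genes, 33 nuclear rows were positive in place of 18, the nuclear median was -0.074 and the mitochondrial median 0.47.

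MT-CYB again had the largest mitochondrial value, with 24670, 26497 and 34868 normalized counts in knockout clones and 15061, 23187 and 17705 in control clones (log2 fold change 0.63, SE 0.21, adjusted p = 0.111). MT-CO1 differed by 0.56 (adjusted p = 0.165), MT-ND1 by 0.46, MT-ND4 by 0.32, MT-ND5 by 0.27, MT-CO2 by 0.25 and MT-ND2 by 0.24. MT-CO3, MT-ND3, MT-ND6, MT-ND4L and MT-ATP6 differed by 0.20, 0.18, 0.18, 0.15 and 0.039, and MT-ATP8 by -0.22. None of these passed the threshold.

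The response to JQ1 was examined next, within each clone, so that every clone was its own pair. It was strong for single subunits in both genotypes, and the direction differed between subunits of the same complex. In knockout clones 10 nuclear rows rose and 46 fell (median -0.23), against 26.3% of all genes tested that rose and 30.2% that fell, 56.5% together (median -0.051). In control clones 18 rose and 20 fell (median 0.00096), against 25.3% and 27.4% of all genes, 52.7% together (median -0.0094). With equal library totals the control clones gave 13 nuclear rises and 29 falls. All 15711 genes then gave 3296 rises and 4963 falls in control clones, with a median of -0.077. With library 1 of knockout clone 12 with JQ1 included, the knockout clones gave 8 nuclear rises and 42 falls. All genes then gave 3773 rises and 4052 falls in knockout clones. Of the 93 members, 19 fell in both genotypes and 7 rose in both, and 0 rose in one genotype and fell in the other. Shared calls were not counted over all genes, of which 56.5% and 52.7% were called in knockout and control clones. These shared counts therefore have no background beside them.

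**Figure D3:**
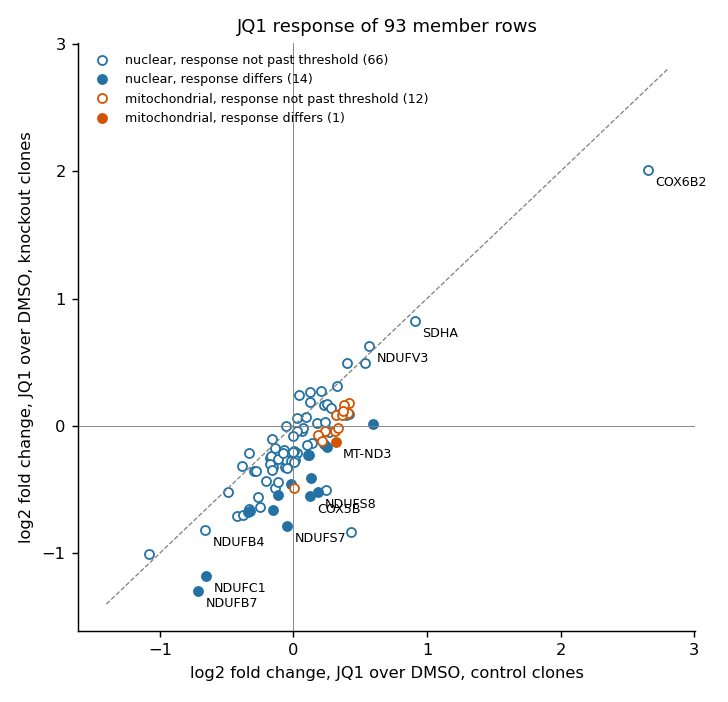
JQ1 response of the 93 members as log2 fold change of JQ1 over DMSO, with knockout clones on the y axis and control clones on the x axis. Blue circles are nuclear and orange circles mitochondrial members, filled where the difference of the responses passed the threshold (limma), and the dashed line marks equal responses. COX6B2 and SDHA rise and NDUFB4 falls in both genotypes, while the 14 filled blue circles all lie below the line.

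Rises shared by both genotypes included SDHA, which holds the flavin of succinate dehydrogenase and oxidizes succinate (chromosome 5, GRCh38, 218241 to 256700). It stood at 7575, 7370 and 7921 normalized counts with JQ1 and at 4072, 4627 and 4204 with DMSO in knockout clones 12, 15 and 2-1. In control clones 3, 10 and 13 it stood at 7405, 7894 and 6535 with JQ1 and at 4161, 4040 and 3404 with DMSO. No library with JQ1 overlapped one with DMSO, and SDHA rose by 0.83 on the log2 scale in knockout clones and 0.91 in control clones (SE 0.061, adjusted p = 2.30e-05 and 1.79e-05, limma). SDHA has pseudogene copies, so part of its reads may be shared with them. Its partners in complex II did not rise. SDHB, the iron-sulfur subunit, changed by -0.10 in knockout clones and -0.16 in control clones (adjusted p = 0.132 and 0.0345), SDHC, a membrane anchor, by -0.24 and -0.17 (0.00373 and 0.0202), and SDHD by -0.043 and 0.030 (0.591 and 0.721).

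COX6B2 had the largest rise of all members but from very few reads. It stood at 11.7, 26.3 and 19.2 normalized counts with JQ1 and 1.45, 9.31 and 3.69 with DMSO in knockout clones, and at 9.13, 14.3 and 16.4 with JQ1 and 2.10, 2.91 and 0 with DMSO in control clones. The log2 fold changes were 2.01 and 2.66 (SE 0.47, adjusted p = 0.00607 and 0.00159, limma). NDUFV3, an accessory subunit of the NADH-oxidizing module of complex I, rose by 0.63 in knockout clones and 0.57 in control clones (SE 0.066, adjusted p = 0.000102 and 0.000191). ATP5S rose by 0.49 and 0.53 (adjusted p = 0.00131 and 0.000922) and ATP5SL by 0.49 and 0.40 (0.000274 and 0.000875). ATP5A1, the alpha subunit of the complex V head, rose by 0.27 and 0.21 (0.00228 and 0.00965).

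NDUFB4, an accessory subunit of the membrane arm of complex I, fell in every clone. It stood at 762, 598 and 756 normalized counts with JQ1 and 1348, 1201 and 1168 with DMSO in knockout clones, and at 668, 902 and 915 with JQ1 and 1108, 1358 and 1445 with DMSO in control clones. No clone mean with JQ1 overlapped one with DMSO, and NDUFB4 fell by 0.82 on the log2 scale in knockout clones and 0.66 in control clones (SE 0.077, adjusted p = 6.16e-05 and 0.000194, limma). NDUFS6, a zinc-binding accessory subunit, fell by 0.71 in knockout clones and 0.42 in control clones (adjusted p = 6.60e-05 and 0.00107), and NDUFA9, an accessory subunit of the peripheral arm, by 0.52 and 0.49 (8.76e-05 and 0.000122). Of the 38 nuclear rows of complex I by name, 2 rose and 25 fell in knockout clones, and 6 rose and 11 fell in control clones. NDUFA4, a product of complex IV, is among the 25. These were 5.26% and 65.8% in knockout clones, against 26.3% and 30.2% of all genes, and 15.8% and 28.9% in control clones, against 25.3% and 27.4%.

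**Figure D4:**
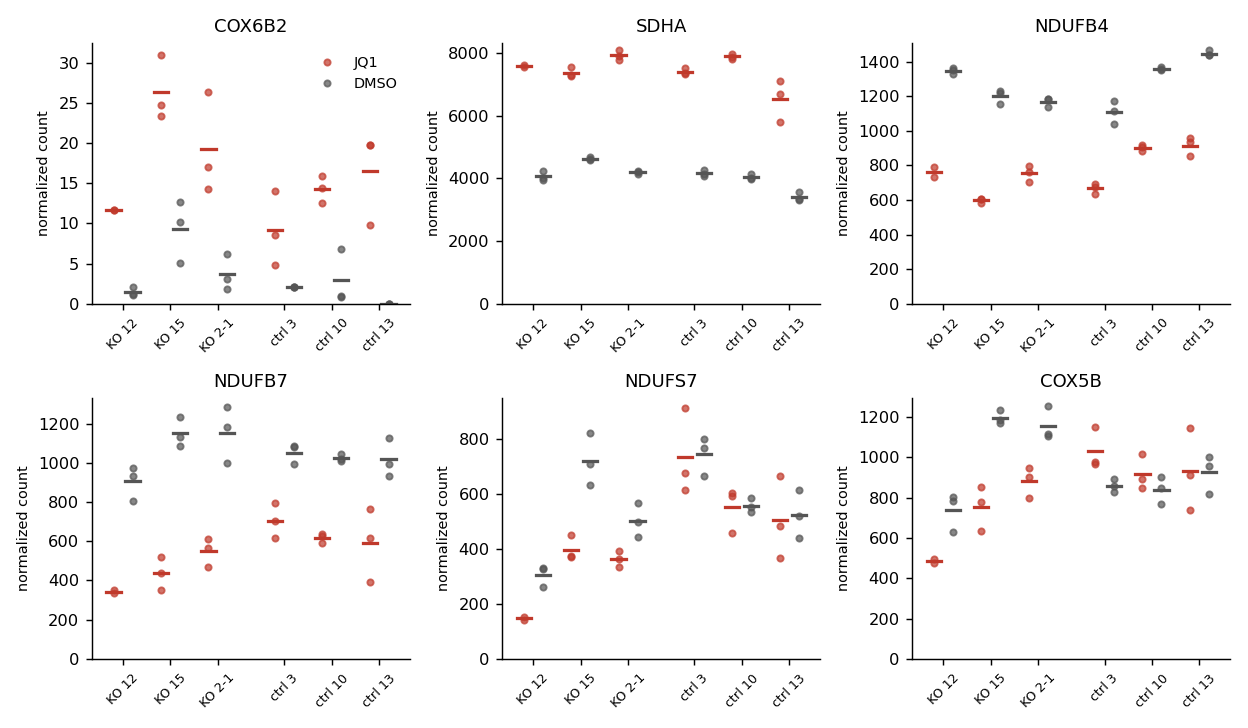
Normalized counts (y axis, from 0) of COX6B2, SDHA, NDUFB4, NDUFB7, NDUFS7 and COX5B in every library, by clone (x axis; KO, knockout; ctrl, control). Points are libraries, short bars clone means, red JQ1 and grey DMSO. SDHA and NDUFB4 separate by treatment in every clone, whereas the clone means of NDUFS7 and COX5B are lower with JQ1 in each knockout clone.

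The isoform sets split in part. Of the c-ring genes, ATP5G1 fell by 0.70 in knockout clones and 0.38 in control clones (adjusted p = 5.94e-05 and 0.00149, limma) and ATP5G2 by 0.36 and 0.28 (0.00184 and 0.00653), while ATP5G3 changed by 0.019 and 0.18 (0.785 and 0.0220). COX6A1, a small subunit of complex IV, changed by 0.090 in knockout clones (adjusted p = 0.224) and rose by 0.41 in control clones (0.000556). COX6B1 fell by 0.32 in knockout clones (0.000872) and changed by -0.062 in control clones (0.340). The widely expressed complex IV subunits COX4I1, COX7B, COX7A2 and COX8A fell by 0.27, 0.32, 0.21 and 0.54 in knockout clones (adjusted p = 0.00312, 0.00256, 0.0107 and 0.000168), with changes of -0.059, -0.15, 0.029 and -0.11 in control clones (0.395, 0.0695, 0.680 and 0.159). UQCRH fell by 0.27 in knockout clones (0.00312) and changed by -0.018 in control clones (0.805). The difference between the genotypes passed for COX8A (-0.43, adjusted p = 0.0301). It did not pass for COX6A1, COX6B1, COX7A2, UQCRH, COX4I1 and COX7B (adjusted p = 0.0532, 0.0651, 0.0940, 0.0829, 0.128 and 0.262), nor for ATP5G1, ATP5G2 and ATP5G3 (0.0687, 0.649 and 0.218). COX7A2L, an assembly factor of supercomplexes, changed by -0.041 in knockout clones and 0.063 in control clones (0.668 and 0.513).

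Of the mitochondrial genes, 8 rose with JQ1 in the control clones, with the largest changes in clone 10. Their median change was 0.65 in control clone 10, 0.22 in clone 13 and 0.098 in clone 3, whereas it was 0.18, -0.0066 and -0.16 in knockout clones 2-1, 12 and 15. In control clones 8 of the 13 passed, all higher, against 25.3% of all genes tested that rose. MT-CYB rose by 0.41 on the log2 scale (SE 0.11, adjusted p = 0.0157), MT-ND1 by 0.36 (0.00877), MT-ND3 by 0.32 (0.00536), MT-CO1 by 0.42 (0.0251), MT-ND4 by 0.38 (0.0237), MT-ND4L by 0.34 (0.0242), MT-CO3 by 0.37 (0.0418) and MT-ND5 by 0.32 (0.0313). MT-ND6 at 0.31 (adjusted p = 0.0574), MT-CO2 at 0.23, MT-ATP6 at 0.21 and MT-ND2 at 0.18 did not pass, nor did MT-ATP8 at 0.0034, which turned to -0.066 with equal library totals. Without control clone 10 the count was 1, without replicate 2 it was 1, with equal library totals it was 3, and in FPKM it was 4. Rises over all genes numbered 2851, 3729, 3296 and 2987 in these settings, in place of 3972. In knockout clones 0 passed (1 at an unadjusted p under 0.05, 0 with edgeR and 1 with DESeq2), with a median of -0.016 and a range of -0.49 for MT-ATP8 to 0.18 for MT-CO1. Over all 15711 genes these counts were 9687 (unadjusted), 8867 (edgeR) and 8545 (DESeq2). MT-CYB changed by 0.097 in knockout clones, MT-ND1 by 0.087, MT-ND4 by 0.17 and MT-ND3 by -0.13. When each library was adjusted for the length trend of all genes, the knockout median was 0.22, with 12 of 13 genes positive. The control median was then 0.30. With this adjustment 2 of the 13 rose in knockout clones, against 4126 of 15666 genes.

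Set against the nuclear rows, the mitochondrial median lay higher in each response, by 0.21 in knockout clones and by 0.32 in control clones. By clone it lay higher by 0.21, 0.11 and 0.37 in knockout clones 12, 15 and 2-1. In control clones 3, 10 and 13 it lay higher by 0.092, 0.67 and 0.25, so the genotypes overlapped and clone 10 was highest. The mitochondrial share of reads averaged 2.00% ± 0.406 with JQ1 and 2.01% ± 0.485 with DMSO in knockout clones, and 1.61% ± 0.210 with JQ1 and 1.35% ± 0.153 with DMSO in control clones (SD, n = 3 each). The nuclear share averaged 0.782% ± 0.0101 with JQ1 and 0.893% ± 0.0410 with DMSO in knockout clones, and 0.874% ± 0.0611 with JQ1 and 0.914% ± 0.0550 with DMSO in control clones. MT-RNR1 and MT-RNR2 rose with JQ1 in both genotypes, by 0.27 and 0.25 in knockout clones (adjusted p = 0.0176 and 0.0117, limma) and by 0.46 and 0.38 in control clones (0.00134 and 0.00148).

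The last comparison tests whether the JQ1 response itself differed between knockout and control clones. It did for 14 nuclear rows and 1 mitochondrial gene, each with a lower response in the knockout clones, against 3.58% of all genes tested with a lower and 3.76% with a higher response. Of the 80 nuclear rows 17.5% passed, and of all genes 7.35%. The 14 rows were spread over the complexes: NDUFA11, NDUFA13, NDUFB2, NDUFB7, NDUFC1, NDUFS7 and NDUFS8 of complex I, UQCR11 of complex III, COX5B, COX7C and COX8A of complex IV, and ATP5E, ATP5I and ATP5L of complex V. The median difference was -0.21 for nuclear rows and -0.28 for mitochondrial genes, against 0.0027 for all genes, and in 68 of 80 nuclear rows and 13 of 13 mitochondrial genes the response was lower in the knockout clones.

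NDUFS7, which carries the last iron-sulfur cluster before the quinone (chromosome 19, GRCh38, 1383527 to 1395589), had 147, 398 and 364 normalized counts with JQ1 and 305, 722 and 502 with DMSO in knockout clones 12, 15 and 2-1. In control clones 3, 10 and 13 it had 734, 551 and 506 with JQ1 and 744, 557 and 525 with DMSO. It changed by -1.04, -0.86 and -0.46 on the log2 scale in the knockout clones and by -0.038, -0.024 and -0.080 in the control clones, with no overlap. The difference was -0.74 (SE 0.15, adjusted p = 0.0289, limma).

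COX5B, a zinc-binding subunit of complex IV (chromosome 2, GRCh38, 97646040 to 97648383), had 486, 754 and 883 normalized counts with JQ1 and 740.1, 1197 and 1158 with DMSO in knockout clones, against 1033, 919 and 932 with JQ1 and 859, 840.5 and 925 with DMSO in control clones. It was lower with JQ1 in all 3 knockout clones, and the difference in response was -0.68 (SE 0.11, adjusted p = 0.0175). NDUFS8, a further iron-sulfur subunit of complex I, differed by -0.70 (SE 0.16, adjusted p = 0.0411), falling by 0.52 in knockout clones and changing by 0.18 in control clones. NDUFB2, an accessory subunit, differed by -0.58 (SE 0.11, adjusted p = 0.0253). It changed by 0.012 in knockout clones (0.900) and rose by 0.59 in control clones (0.000302).

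NDUFB7, an accessory subunit of the membrane arm (chromosome 19, GRCh38, 14566078 to 14572062), fell in both genotypes and further in the knockout clones. It had 342, 436 and 548 normalized counts with JQ1 and 904, 1150 and 1154 with DMSO in knockout clones, against 706, 618 and 592 with JQ1 and 1051, 1025 and 1018 with DMSO in control clones. The changes were -1.29 in knockout clones and -0.71 in control clones, and the difference was -0.58 (SE 0.12, adjusted p = 0.0301). NDUFC1 did likewise, with -1.18 in knockout clones, -0.65 in control clones and a difference of -0.53 (SE 0.12, adjusted p = 0.0373). NDUFA11 differed by -0.54 (adjusted p = 0.0348), and the other 7 nuclear rows by -0.50 (ATP5I) to -0.33 (COX7C). MT-ND3, the small complex I subunit with a loop that moves during activation, differed by -0.45 (SE 0.10, adjusted p = 0.0364), with changes of -0.0066, -0.35 and -0.028 in knockout clones and 0.27, 0.37 and 0.32 in control clones. The other 12 mitochondrial genes differed by -0.49 (MT-ATP8) to -0.21 (MT-ND4), with adjusted p between 0.167 (MT-ND4L) and 0.457 (MT-CO1).

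The number of calls changed with the clones used, over all genes as well as among the members. Over all 15711 genes it was 1154. It was 214 without knockout clone 15, 1207 without knockout clone 12 and 1636 without knockout clone 2-1. Without control clone 3, 10 or 13 it was 111, 12 and 81. The nuclear count was 0 without knockout clone 15 and without any 1 of the control clones, 11 without knockout clone 12 and 23 without knockout clone 2-1. It was 5 without replicate 1, 6 without replicate 3, 6 without the library of control clone 13 that held CEACAM6, 8 in FPKM, and 3 with library 1 of knockout clone 12 included. All genes gave 670, 827, 887, 521 and 488 calls in these settings. The mitochondrial count was 0 without knockout clone 15, without any 1 control clone, in FPKM, with edgeR and with that library included.

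Transcript length moved with the difference in response. Effective length was taken from the ratio of reads to FPKM. Among all genes with a mean of at least 200 normalized counts, the median difference in response was -0.34 for the 125 of at most 400 nt and 0.076 for the 7067 over 1500 nt. Among nuclear rows the medians were -0.32 for the 19 of at most 400 nt and 0.061 for the 7 over 1500 nt. Spearman's rho between length and the difference was 0.55 over the 80 nuclear rows, 0.88 over the 13 mitochondrial genes and 0.24 over 9614 genes, where genes share the same libraries and are not independent. With JQ1 in knockout clones the short genes stood at -0.33 (all genes) and -0.29 (nuclear rows), and in control clones at 0.018 and 0.0024. When each library's values were adjusted for the length trend of all genes, the knockout clones gave 20 nuclear rises and 26 falls, of which 25 had also fallen without the adjustment, and a median of -0.028. Over the 15666 genes so adjusted, 4126 rose and 4576 fell. The difference in response then passed for 3 of the 80 nuclear rows, NDUFS7 (-0.58, adjusted p = 0.0423), COX5B (-0.42, adjusted p = 0.0403) and ATP5E (-0.47, adjusted p = 0.0327), and its nuclear median was -0.0083. Of all 15666 genes, 495 then had a lower and 381 a higher response. For the mitochondrial genes the adjusted difference had a median of -0.12 and passed for 0 of 13. MT-ND3 stood at -0.078 (adjusted p = 0.744, limma). The length found for ATP5E was 2800 nt, the longest of all members, whereas its mRNA is known as a short one. This length is therefore doubtful, and so is the adjusted value of ATP5E. The part of length in the result was not tested further.

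**Figure D5:**
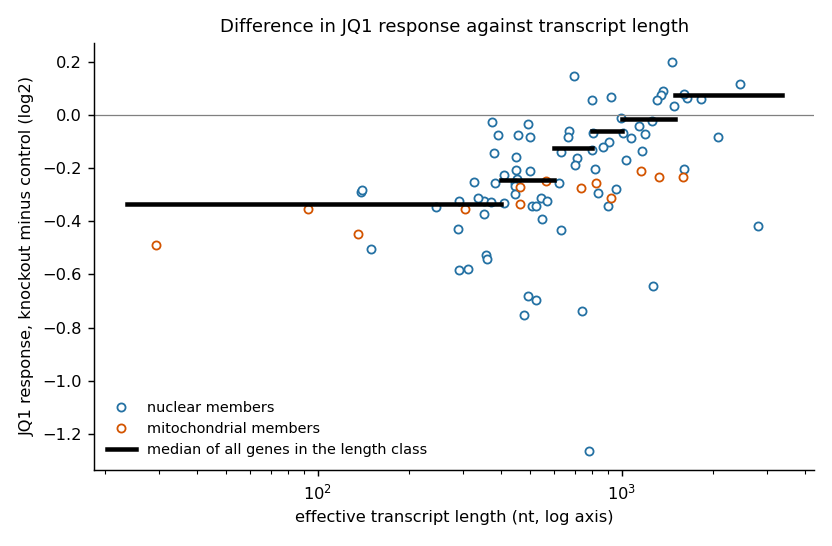
Difference in JQ1 response, knockout minus control clones (y axis, log2), against effective transcript length (x axis, nt, log axis). Blue circles are nuclear and orange circles mitochondrial members, and black bars are medians of all genes with a mean of at least 200 normalized counts in a length class, the last class being open to longer genes. The bars climb from -0.34 for the shortest class to 0.076 for the longest, and most members lie near or below them.

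Promoter windows of the members that carry these results are shown to set the responses beside the sequence they start from. They span 250 bases before and 50 after the start site, from RefSeq on GRCh38.p14, written 5′ to 3′ on the gene's strand. Of the 80 nuclear rows, 64 matched by symbol. Capitals mark matches on either strand to the motif of NRF1 (GCGC, any base, TGCGC), the ETS motif (CCGGAAG), the YY1 motif (AAGATGG), the E-box of MYC (CACGTG) and the E-box of NEUROD1 (CAGATG). NRF1, ETS factors of the GABP type and YY1 are known regulators of nuclear respiratory genes. SDHA and COX6B2 rose with JQ1 in both genotypes, NDUFB7 fell in both, and NDUFS7 and COX5B fell in the knockout clones.
SDHA (chr5:218070-218369, plus strand): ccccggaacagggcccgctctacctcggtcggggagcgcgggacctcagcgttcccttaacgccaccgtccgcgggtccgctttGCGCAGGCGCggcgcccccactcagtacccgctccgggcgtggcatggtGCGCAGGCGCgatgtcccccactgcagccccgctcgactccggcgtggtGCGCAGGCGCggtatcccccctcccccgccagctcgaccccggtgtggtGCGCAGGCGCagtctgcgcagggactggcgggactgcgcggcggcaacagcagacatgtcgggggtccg
COX6B2 (chr19:55354670-55354969, minus strand): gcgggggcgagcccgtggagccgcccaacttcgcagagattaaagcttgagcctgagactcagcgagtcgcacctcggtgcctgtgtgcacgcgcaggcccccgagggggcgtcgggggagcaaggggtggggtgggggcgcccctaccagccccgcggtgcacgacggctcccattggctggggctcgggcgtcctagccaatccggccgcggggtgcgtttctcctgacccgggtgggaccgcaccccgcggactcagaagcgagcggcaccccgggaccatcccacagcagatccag
NDUFB7 (chr19:14572017-14572316, minus strand): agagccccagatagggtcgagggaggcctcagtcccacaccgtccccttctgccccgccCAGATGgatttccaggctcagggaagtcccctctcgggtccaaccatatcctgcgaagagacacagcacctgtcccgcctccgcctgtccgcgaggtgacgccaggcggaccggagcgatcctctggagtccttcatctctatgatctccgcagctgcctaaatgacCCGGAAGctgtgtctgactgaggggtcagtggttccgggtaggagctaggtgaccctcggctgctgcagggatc
NDUFS7 (chr19:1383657-1383956, plus strand): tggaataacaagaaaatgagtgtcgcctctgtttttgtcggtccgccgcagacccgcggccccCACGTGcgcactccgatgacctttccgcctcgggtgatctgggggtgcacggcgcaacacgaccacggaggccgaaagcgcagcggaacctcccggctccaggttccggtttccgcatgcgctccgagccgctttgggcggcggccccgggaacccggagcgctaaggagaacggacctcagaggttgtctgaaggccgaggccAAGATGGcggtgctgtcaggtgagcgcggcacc
COX5B (chr2:97645812-97646111, plus strand): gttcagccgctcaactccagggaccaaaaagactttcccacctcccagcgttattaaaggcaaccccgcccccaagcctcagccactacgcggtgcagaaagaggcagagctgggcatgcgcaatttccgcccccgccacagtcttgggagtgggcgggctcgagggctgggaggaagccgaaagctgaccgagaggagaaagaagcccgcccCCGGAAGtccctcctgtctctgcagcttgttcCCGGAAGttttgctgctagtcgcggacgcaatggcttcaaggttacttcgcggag

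The SDHA window holds 4 matches to the NRF1 motif, evenly spaced in a repeated stretch. COX5B holds 2 ETS matches, NDUFB7 holds 1 ETS match and 1 NEUROD1 E-box, NDUFS7 holds 1 MYC E-box and 1 YY1 match, and COX6B2 has none of these letters. Over the 77 windows of the matched members, 19.5% held the NRF1 motif, against 5.78% of 35116 windows of all genes. The ETS motif was in 27.3% of member windows and 10.3% of all, the YY1 motif in 24.7% and 5.84%, the MYC E-box in 9.09% and 7.26%, and the NEUROD1 E-box in 13% and 14.7%. No match overlapped another in the windows shown. A match is a description of letters and not a bound site.

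Other genes that make, assemble or feed the complexes were counted beside the members, and values are given for knockout and then control clones. Over all genes tested, 26.3% rose and 30.2% fell with JQ1 in knockout clones, and 25.3% rose and 27.4% fell in control clones. Of 77 mitochondrial ribosome rows, 7 rose and 45 fell with JQ1 in knockout clones and 8 rose and 40 fell in control clones (58.4% and 51.9% lower, against 30.2% and 27.4% of all genes), with medians of -0.25 and -0.26. MRPL23 fell by 1.92 and 1.52 on the log2 scale (adjusted p = 7.11e-06 and 1.15e-05, limma), MRPL3 by 1.22 and 1.31 (1.61e-05 and 1.35e-05) and MRPL24 by 1.19 and 1.19 (7.11e-06 and 7.48e-06). Of 46 assembly factors, 7 rose and 18 fell in knockout clones and 7 rose and 17 fell in control clones. Called in either direction were 54.3% and 52.2% of them, near the 56.5% and 52.7% of all genes, with 39.1% and 37% lower. COA6, a copper-handling factor of complex IV, fell by 1.40 and 1.10 (2.18e-05 and 6.22e-05), while COX19, another complex IV assembly factor, rose by 0.84 and 0.96 (6.94e-05 and 4.33e-05) and TTC19, a factor of complex III, by 0.72 and 0.85 (6.31e-05 and 3.46e-05).

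In the citric acid cycle, which supplies NADH and succinate, 7 of 14 genes rose and 2 fell in knockout clones, and 8 rose and 3 fell in control clones. The shares that rose were 50% and 57.1%, against 26.3% and 25.3% of all genes. OGDH, a subunit of the oxoglutarate dehydrogenase complex, rose by 0.98 and 1.19 (adjusted p = 1.43e-05 and 8.98e-06), and IDH3A, a catalytic subunit of isocitrate dehydrogenase, by 0.93 and 0.83 (0.000120 and 0.000242). IDH3B, a partner subunit of IDH3A, fell by 0.70 and 0.61 (2.72e-05 and 4.98e-05). Of 25 genes of mitochondrial transcription, replication and RNA, 6 rose and 10 fell in knockout clones and 5 rose and 12 fell in control clones. The shares that fell were 40% and 48%, against 30.2% and 27.4% of all genes, and those that rose, 24% and 20%, were near the 26.3% and 25.3% of all genes. POLG, the mitochondrial DNA polymerase, rose by 1.00 and 1.04 (1.16e-05 and 1.07e-05), and TACO1, a translational activator of MT-CO1, fell by 0.79 and 1.19 (0.000144 and 2.70e-05).

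Of 10 electron carriers and further subunits, 3 rose and 5 fell in knockout clones and 3 rose and 4 fell in control clones, 80% and 70% called, against 56.5% and 52.7% of all genes. CYCS, cytochrome c, rose by 0.34 and 0.40 (adjusted p = 0.000410 and 0.000195, limma), and ATPIF1, the inhibitor of complex V hydrolysis, fell by 0.99 and 0.48 (2.55e-05 and 0.000871). Of 11 regulators tested, 4 rose and 2 fell in each genotype, and the 54.5% called were near the share of all genes. MYC rose by 1.66 and 1.08 (2.74e-05 and 0.000213), and PPRC1, a PGC-1 family coactivator, fell by 0.30 and 0.50 (0.00594 and 0.000440).

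By genotype, 4 of the 183 rows of these lists passed in DMSO and 5 with JQ1, and 7 passed for the difference in response. These were 2.19%, 2.73% and 3.83%, against 12.5%, 11.2% and 7.35% of all genes. In DMSO the calls were SCO1 (log2 fold change 0.60, adjusted p = 0.0493) and ECSIT (-0.94, 0.00762) of the assembly factors, MTERF, a mitochondrial transcription terminator (1.25, 0.0439), and PPARD of the regulators (1.63, 0.0226). With JQ1 they were SCO1 (0.65, 0.0306), ECSIT (-0.63, 0.0447), PPARD (1.25, 0.0272), IDH3A (0.61, 0.0411) and MRPL10 (0.64, 0.0420). In the difference of responses ETFDH, which passes electrons from fatty acid oxidation to quinone, was at 0.53 (adjusted p = 0.0312) and MRPS27 at 0.43 (0.0397), while ATPIF1 was at -0.51 (0.0301), MTERF at -0.66 (0.0301), NUBPL at -0.55 (0.0406), ESRRA at -0.53 (0.0415) and MRPL53 at -0.50 (0.0357).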

How the data were processed

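RNA-seq was made from 36 libraries with the TruSeq Stranded mRNA kit, which selects poly(A) RNA, per the labels' protocols. The submitters' processing notes name cutadapt, STAR, RSEM and hg19, with versions, roles and use of strand not given in the sources used here or in any header. The deposited normalized counts were scaled by DESeq2 with 1 factor for each library, as the name of the authors' table says, for 19014 genes, a signal corrected for depth but not for length. All values were whole multiples of the column's step (100% within 1e-06), so whole reads were recovered. The authors' deposited FPKM values (57820 genes) were used to compare levels between genes and, at 0.5 FPKM or more, to find effective lengths.

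Library 1 of knockout clone 12 with JQ1 was left out. Log2(normalized count + 1) was averaged over the libraries of each clone and tested with limma 3.58.1 (R 4.3.3, expression trend) over the 15711 genes that reached 10 normalized counts in 9 or more of the 35 libraries. Genotype was tested on 3 against 3 clone means per treatment, and JQ1 and the difference in response on within-clone differences of 6 clones. P-values are two-sided and Benjamini-Hochberg adjusted over all genes tested, with a threshold of 0.05; any adjusted p with no tool named is from limma. Fold changes on this scale understate changes of low genes such as COX6B2. The members and the gene lists were chosen with earlier results of these data known, so no p over the members or lists is given.

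Named were, per comparison, the 6 nuclear members past the threshold with the largest rise and the 6 with the largest fall, every mitochondrial member, the isoform sets, members of extreme FPKM, and up to 3 genes past the threshold per direction of each list, of which a part is printed; 1 such member is not reported here. UQCR10, SDHD, NDUFC1 and NDUFS7 below the threshold, and the remaining members past it in the difference of responses, were named after their values were seen. Alternatives used other pseudocounts, filters and scalings, FPKM + 0.1, libraries as replicates, edgeR 4.0.16 and DESeq2 1.42.0 on summed reads, and left out each clone or replicate. Adjustment for length (30 bins) and removal of a control library that held CEACAM6 were added after seeing the data. The limma fits were also run on simulated data with changes larger than most seen in the members. No result of that run is given here, and no call rests on it. Libraries of the same clone and treatment varied beyond sampling of reads, with chi-square over its degrees of freedom at 2.19 to 14.0. Gene positions are from GENCODE 29 and promoters from RefSeq, both on GRCh38, and no coordinates of hg19 were used. Reads shared with near-identical copies or overlapping genes cannot be told apart in these tables. Figures were drawn with matplotlib 3.10.9.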

Additional observations from a re-analysis of the deposited data

Results flagged for a closer look

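The JQ1 response differed between knockout and control clones by a test of the difference itself (limma, adjusted p under 0.05) for 15 members, all lower in the knockout clones. On the log2 scale the differences in complex I were -0.74 for NDUFS7, -0.70 for NDUFS8, -0.58 for NDUFB2, -0.58 for NDUFB7, -0.54 for NDUFA11, -0.53 for NDUFC1 and -0.34 for NDUFA13. In complex III the difference was -0.43 for UQCR11 (ENSG00000127540.7). In complex IV they were -0.68 for COX5B, -0.43 for COX8A and -0.33 for COX7C, and in complex V -0.50 for ATP5I, -0.42 for ATP5E and -0.34 for ATP5L. The mitochondrial member was MT-ND3 at -0.45. Transcript length moved with these differences, and with an adjustment for it 3 of the 15 passed the threshold. Over all genes, 876 of 15666 passed with that adjustment, in place of 1154 of 15711.

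Library 1 of knockout clone 12 with JQ1, which entered no main comparison, held CEACAM6 at 46010 normalized counts, a transcript listed at 0 in the replicates of that clone.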

How the results depend on the processing

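Of 366 summary values under another setting, 294 stayed within 1.5 times the reported count or within the spread between clones. Some of these could not move, so the 294 do not measure robustness. The mitochondrial minus nuclear median cancels a factor per library, and was 0.51 in DMSO with equal library totals and with TMM. The DMSO comparison holds no JQ1 library, so adding or dropping 1 could not change it. A count of 0 that stayed 0 was also taken as unchanged. For genotype in DMSO, DESeq2 called 1 nuclear and 3 mitochondrial members, and 3284 of all 15711 genes. For genotype with JQ1, 2 nuclear members passed with a minimum of 50 normalized counts, 2 with TMM, 2 with the left-out library included and 5 with DESeq2. All genes gave 1564 calls (of 12620 genes), 1740, 1908 and 2908 in these settings. For JQ1 in control clones, 3 mitochondrial genes passed with equal library totals, 3 with totals without mitochondrial genes, 4 in FPKM and 5 with the spread of the control clones alone. Rises over all genes were 3296, 3346, 2987 and 4512 there. For JQ1 in knockout clones, 2 mitochondrial genes fell with equal library totals, 1 with totals without mitochondrial genes and 1 with DESeq2, while 2 rose with length adjustment. Falls over all genes were 5343, 5325 and 4449 there, and rises with length adjustment 4126. For the difference in response, 8 nuclear members passed in FPKM, 3 with the left-out library and 3 with length adjustment, and 0 mitochondrial genes with any of these or with edgeR. All genes gave 521 calls in FPKM, 488 with the left-out library, 876 with length adjustment and 985 with edgeR. The cause of these shifts was not tested.

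Leaving out 1 clone or replicate at a time gave 0 to 6 mitochondrial calls for genotype in DMSO and 0 to 2 nuclear calls with JQ1. It gave 25 to 40 nuclear and 1 to 11 mitochondrial calls for JQ1 in control clones, 48 to 58 and 0 to 3 in knockout clones, and 0 to 23 and 0 to 2 for the difference in response. Calls over all genes ranged from 911 to 2017 for genotype in DMSO and from 731 to 1701 with JQ1. They ranged from 6034 to 8942 for JQ1 in control clones, 7443 to 8480 in knockout clones and 12 to 1636 for the difference. The mitochondrial minus nuclear median ranged from 0.36 to 0.72 (DMSO), 0.34 to 0.60 (JQ1), 0.18 to 0.46 (control response), 0.13 to 0.35 (knockout response) and -0.21 to 0.072 (difference).

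With libraries in place of clones as replicates, which share clones and so give p-values that are too small, and without a replicate block, genotype in DMSO gave 53 nuclear and 13 mitochondrial calls, genotype with JQ1 gave 62 and 11, and the difference in response gave 53 and 10. JQ1 gave 59 nuclear calls in control clones and 3 mitochondrial calls in knockout clones. With a replicate block these counts were 52 and 13, 62 and 11, 52 and 9, 59, and 3. Without the block, 11616 of all 15711 genes were called for genotype in DMSO, 11535 for genotype with JQ1 and 7459 for the difference in response. JQ1 gave 11440 calls over all genes in control clones and 11753 in knockout clones. With the block these were 11640, 11536, 7415, 11450 and 11750. Replicate numbers did not pair the libraries: correlations of same-numbered libraries lay between -0.080 and 0.085, and 12 of 35 libraries correlated best with their own number.

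Single genes turned direction 35 times in 2544, a number that also holds values that could not change. With JQ1 by genotype these were MT-ATP6 (-0.017, left-out library included) and MT-ATP8 (0.094 in FPKM, 0.10 by length). In control clones MT-ATP8 turned (-0.066 and -0.061 with equal totals, -0.029 by length). In knockout clones, by length, MT-ND6, MT-CO2, MT-ND2, MT-ND3, MT-ATP6 and MT-ND4L stood at 0.30, 0.21, 0.039, 0.21, 0.13 and 0.32, MT-ND4L also at 0.15 in FPKM and 0.014 with edgeR, and MT-ND5 at -0.0051 with the left-out library. The differences of MT-ND6 and MT-ND4L were 0.014 and 0.015 by length. Without 1 clone or replicate, ranges crossing 0 were -0.049 to 0.40 (MT-ND6) and -0.099 to 0.15 (MT-ATP6) for genotype with JQ1, -0.20 to 0.12 (MT-ATP8) in control clones, and -0.16 to 0.068 (MT-ND6), -0.10 to 0.029 (MT-CO2), -0.0042 to 0.19 (MT-ND1) and -0.11 to 0.097 (MT-ND4L) in knockout clones.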
